A study of Mus musculus with 8 samples.

Results

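Foxp3 is the forkhead transcription factor that defines regulatory T (Treg) cells, the CD4+ T cells that restrain immune responses. Much of the DNA bound by such lineage factors lies away from gene bodies, in enhancers that can sit far from the gene they act on. Effector Treg (eTreg) cells are the activated Treg cells that carry homing and suppressor molecules, while central Treg (cTreg) cells are the resting pool. The submitters listed Foxp3 binding sites in 3 classes, common, cTreg-specific and eTreg-specific. Of the 947 eTreg-specific sites, 412 had their centre outside every protein-coding RefSeq gene body (43.5%, Wilson 95% interval 40.4% to 46.7%), and these 412 sites are described here. Within the submitters' list they were chosen by position alone. The sources used here name no peak caller, so whether signal of these libraries entered that list is not known. The corresponding share was 43.1% of 726 cTreg-specific sites (39.6% to 46.7%) and 33.5% of 3847 common sites (32.1% to 35.0%), and these intervals treat sites as independent.

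Signal was measured by CUT&Tag, in which an antibody directs the Tn5 transposase to cut and tag the DNA around its target. Treg cells of C57BL6/J mice were taken from spleen and lymph nodes and freshly sorted as CD4+hCD2+GFP-. The WT groups had the genotype Foxp3WT-IRES-hCD2/Foxp3-IRES-GFP and the R397W groups Foxp3R397W-IRES-hCD2/Foxp3-IRES-GFP, so every animal also carried a Foxp3 allele with a GFP reporter, and the sort kept cells that showed only the hCD2 reporter of the other allele. Each genotype had 2 libraries made with an in-house rabbit antibody to Foxp3 and 2 with normal rabbit IgG as the background. The R397W change lies in the forkhead domain, and the values hold no marker by which the genotype or cell type labels could be checked. The labels do not say whether libraries numbered 1 and 2 came from separate mice, nor how many mice were pooled. P-values therefore measure only the spread between these libraries, which may be technical.

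The part of a site that overlapped a RefSeq promoter window could be read as sequence. Such windows run from 250 bases before to 50 bases after a gene's start (GRCm38.p6, the assembly behind mm10). Of the sites compared with them, 7 overlapped the upstream part of such a window by at least 30 bases. The stretches at 4 protein-coding genes are shown because they are the members that abut a promoter at a gene used in the results. Ccr8 encodes a chemokine receptor of effector Treg cells, Il2 the T cell growth factor, Casp4 an inflammatory caspase and Mbnl1 a splicing regulator. The stretches lie at chr9:120091883-120092069 (plus strand), chr3:37126131-37126204 (minus strand), chr9:5308599-5308848 (plus strand) and chr3:60472580-60472685 (plus strand), and capitals mark a forkhead motif, the first run in Casp4, and NF-kB motifs, the other runs.
Ccr8: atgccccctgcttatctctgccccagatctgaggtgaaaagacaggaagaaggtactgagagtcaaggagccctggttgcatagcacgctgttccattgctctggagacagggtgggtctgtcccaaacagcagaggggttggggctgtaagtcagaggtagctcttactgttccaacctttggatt
Il2: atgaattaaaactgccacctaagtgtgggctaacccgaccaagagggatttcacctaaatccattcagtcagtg
Casp4: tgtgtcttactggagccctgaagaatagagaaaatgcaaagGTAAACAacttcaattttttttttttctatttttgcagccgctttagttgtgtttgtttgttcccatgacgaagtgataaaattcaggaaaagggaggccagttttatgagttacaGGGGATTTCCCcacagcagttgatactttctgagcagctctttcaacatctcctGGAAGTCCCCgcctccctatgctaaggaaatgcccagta
Mbnl1: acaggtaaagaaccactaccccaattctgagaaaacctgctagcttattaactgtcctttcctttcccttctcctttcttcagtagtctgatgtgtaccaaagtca

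In these 7 stretches, 6 motifs were searched on both strands, namely the forkhead motif TGTTTAC, the AP-1 motif TGANTCA, the RUNX motif TGTGGTT, the ETS motif AGGAAGT, a run of 3 TTTG units and the degenerate NF-kB consensus. Matches of different motifs may share letters, and the NF-kB consensus was widened after the letters were seen. Casp4 had 1 forkhead match, read as GTAAACA, and NF-kB matches at 2 places, and a stretch at Dennd4c, not shown, had 1 NF-kB match. No other match was found. The same 250 positions held TGTTTAC in 3.17% of all 32851 promoter windows, the NF-kB consensus in 7.25%, AGGAAGT in 7.69% and TGANTCA in 6.75%. At the positions of the Ccr8 stretch the forkhead motif occurred in 2.46% of windows and at those of the Il2 stretch in 0.956%. These stretches cover 46.6% of the Ccr8 site, 18.5% of the Il2 site, 62.3% of the Casp4 site and 26.4% of the Mbnl1 site, so the letters of the remainder were not read. Sites farther from a gene start had no sequence to read here.

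A further site, on chromosome 16 from 84713076 to 84713476, lay in Mir155hg, the non-coding host gene of miR-155, a microRNA known for its part in T cell activation and Treg cell fitness. It is shown for that annotation and was picked after its values were seen. The miR-155 hairpin begins 864 bp from the site's centre, and its mature products are given from RefSeq with the seed, bases 2 to 8, in capitals.
mmu-miR-155-5p: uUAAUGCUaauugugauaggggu
mmu-miR-155-3p: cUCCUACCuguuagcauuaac
Normalised read counts at the Mir155hg site were 16.5 and 0 in the WT Foxp3 libraries, 16.8 and 0 in R397W Foxp3, 22.0 and 0 with WT IgG, and 0 and 0 with R397W IgG (libraries 1 and 2). Foxp3 and IgG values overlapped in WT cells, and the protein-coding gene closest to this site was Mrpl39, a mitochondrial ribosome gene 5005 bp away.

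Reads in all listed sites ranged from 111274 to 394196 per library, and those in the 412 sites from 4990 (R397W IgG 1) to 19691 (WT Foxp3 1). Values are normalised read counts as deposited, and 1 read was worth between 0.384 (WT Foxp3 2) and 2.48 (R397W IgG 1). A site at 0 may therefore hold up to 3 reads' worth of signal, from 1.15 in WT Foxp3 2 to 7.44 with R397W IgG 1, for counting error only. Of the 412 sites, 403 had a read in WT Foxp3 1 and 212 in WT Foxp3 2, 326 and 143 in the R397W Foxp3 libraries, 276 and 100 with WT IgG, and 290 and 113 with R397W IgG. Every library numbered 1 thus covered more of the sites than any library numbered 2. Only 23 of the 412 sites had reads in all 8 libraries. Across the 412 sites, Spearman's rank correlation between pairs of libraries ranged from 0.21 to 0.55 with a median of 0.33, against a median of 0.51 over all 5521 sites. It was 0.51 between the WT Foxp3 libraries. Between WT Foxp3 and WT IgG it was 0.53 and 0.49 with IgG 1 (Foxp3 libraries 1 and 2), and 0.26 with IgG 2 for each.

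Most of the sites were distal. The distance from a site's centre to the nearest protein-coding gene end had a median of 26986 bp and quartiles of 10459 and 65136 bp, close to the median of 27422 bp for cTreg-specific sites outside genes and above the 12649 bp of common ones. Of the 412 sites, 62 (15.0%) lay under 5 kb from a gene end, 106 (25.7%) at 5 to 20 kb, 173 (42.0%) at 20 to 100 kb and 71 (17.2%) at over 100 kb. Common sites outside genes lay under 5 kb in 36.7% of cases. These sites occupied 20 chromosomes and 410 of them were 400 bp long by end minus start. For 320 sites the start and strand of the nearest gene were matched, and 196 of these (61.3%) were upstream of it and 124 downstream. The nearest protein-coding gene is a label of position here and says nothing of which gene a site acts on. A long non-coding RNA gene contained 88 of the sites, and any annotated non-coding gene or locus contained 94.

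**Figure D1:**
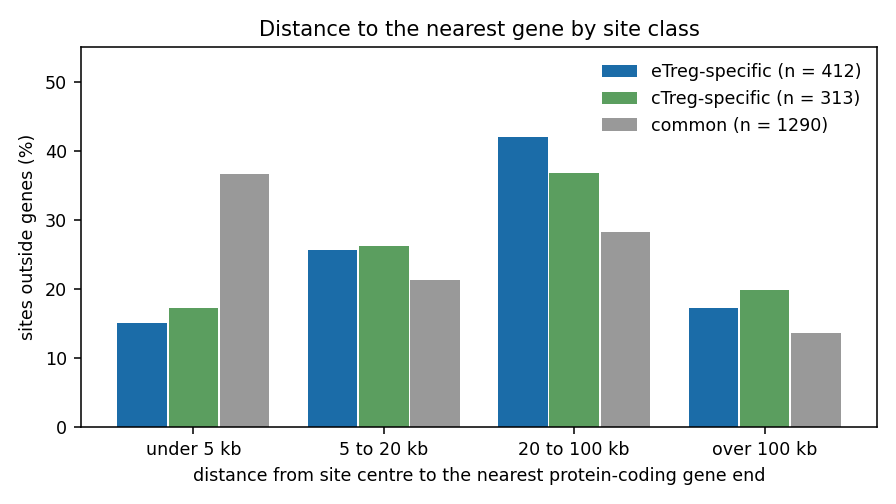
Share of the sites outside protein-coding genes (y axis, percent) by distance from the site's centre to the nearest protein-coding gene end (x axis), for the 412 eTreg-specific, 313 cTreg-specific and 1290 common sites outside genes. The 20 to 100 kb class is the most frequent for eTreg-specific sites (42.0%), and the class under 5 kb the most frequent for common ones (36.7%).

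The extremes of the distance range were genes of unlike kinds. The nearest sites were 11 bp from the end of Dmpk, a muscle protein kinase gene, 74 bp from Mbnl1 and 141 bp from Casp4. The Dmpk site (chromosome 7, 19093632 to 19094032) had 30.3 and 4.61 in WT Foxp3, 16.8 and 138 in R397W Foxp3, 70.4 and 0 with WT IgG and 42.2 and 46.6 with R397W IgG, and neither Foxp3 group was separate from its IgG or from the other. The Casp4 site (chromosome 9, 5308508 to 5308908), which carries the forkhead motif shown above, was weak, with 6.06 and 0.384 in WT Foxp3, 4.19 and 0 in R397W Foxp3, 19.5 and 0 with WT IgG and 7.44 and 0 with R397W IgG. The 2 farthest sites were 1137742 and 1056614 bp from Zfp386, but both lay inside the annotated immunoglobulin heavy chain locus Igh, which the annotation does not count as protein-coding. The next was 740186 bp from Gata3, the gene of a transcription factor used by effector Treg cells, and had a signal in WT Foxp3 2 alone (8.06). The other site nearest to Gata3, 701354 bp away, had 1.73 and 0 in WT Foxp3 and 10.5 and 0 in R397W Foxp3. WT IgG had 8.17 and 0 there, and R397W IgG 0 and 0.

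Sites near each other were common. The 412 sites had 319 different nearest genes, of which 257 had 1 site, 42 had 2 and 20 had 3 or more. Another eTreg-specific site lay within 10 kb of 80 sites (19.4%), a common site within 10 kb of 68 (16.5%) and a cTreg-specific site within 10 kb of 4 (0.971%), where the 3 classes differ in size (947, 3847 and 727 sites). Of the 319 genes, 32 also held an eTreg-specific site in their body, 73 a common site and 13 a cTreg-specific site. Agfg1, which encodes an ArfGAP-domain protein, and Ptger4, the prostaglandin E2 receptor EP4, had 6 sites each. Pabpc2 had 5, and Acvr2a (an activin receptor), Icos (a costimulatory receptor that effector Treg cells use) and Akap13 (a kinase anchor protein) had 4 each. The others, with 3 each, were Ptger2, Cited2, Kcnrg, Akap11, Ubl3, Ankrd46, Nab1, Mturn, Spdye4c, Vps54, Atp2b1, Cxcr4, Ets1 and Mmd.

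Set against the IgG library of the same number, the mean anti-Foxp3 signal of the 412 sites was higher in WT cells and near it in R397W cells. Averaged over the sites, the normalised read count was 41.4 and 17.4 in the WT Foxp3 libraries, 26.9 and 18.3 in R397W Foxp3, 22.7 and 11.1 with WT IgG, and 30.0 and 18.1 with R397W IgG (libraries 1 and 2). The groups overlapped, since WT Foxp3 2 was lower than both R397W Foxp3 libraries and than WT IgG 1. As group means these are 29.4 ± 17.0 for WT Foxp3 and 22.6 ± 6.12 for R397W Foxp3 (SD, n = 2 each, exact permutation p = 1, two-sided). The difference was -6.76, and it turned to 5.27 without WT Foxp3 1. The ratio of Foxp3 to same-numbered IgG was 1.82 and 1.56 in WT cells and 0.897 and 1.01 in R397W cells. On the log2 scale these ratios were 0.75 ± 0.16 in WT and -0.07 ± 0.12 in R397W (SD, n = 2 libraries each), a difference of -0.82. Both WT ratios exceeded both R397W ratios, and the exact permutation p of 0.33 (two-sided) is the smallest that 2 against 2 can give. At the 535 eTreg-specific sites inside genes, libraries 1 and 2 of WT cells gave ratios of 1.62 and 1.37. Those of R397W cells gave 0.869 and 1.04 there, so sites outside genes were not alone in this pattern. The labels do not tie a Foxp3 library to the IgG library of its number. Over the mean of both IgG libraries of its genotype, a comparison added after the data were seen, the WT libraries had ratios of 2.45 and 1.03, and the R397W libraries 1.12 and 0.760. These overlapped, with a log2 difference of -0.78 (exact permutation p = 0.67, two-sided, n = 2 each). IgG itself was higher in R397W than in WT for each number.

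**Figure D2:**
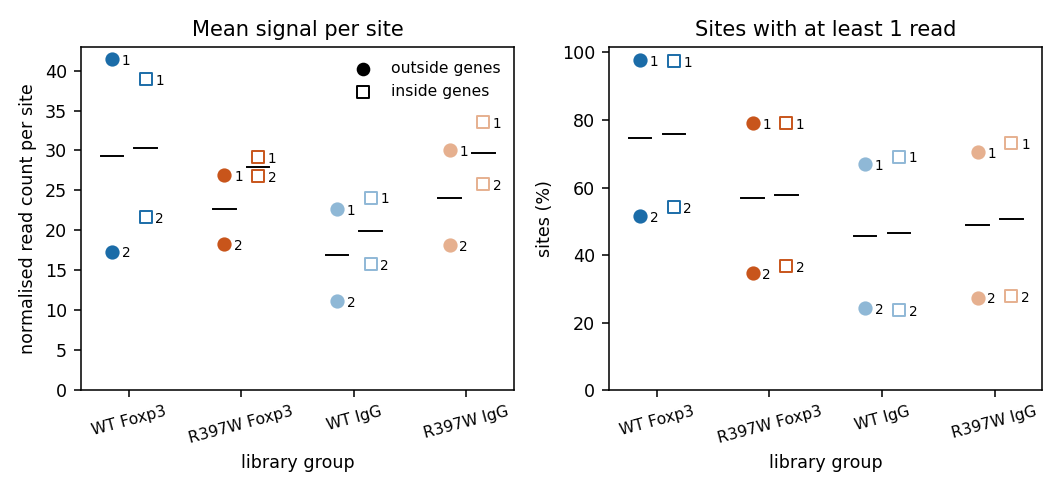
Mean normalised read count per site (left) and share of sites with at least 1 read (right) in each of the 8 libraries, for eTreg-specific sites outside (filled circles, n = 412) and inside (open squares, n = 535) protein-coding genes. Figures beside the points are library numbers and lines are means of 2 libraries; every library numbered 1 stands above its partner numbered 2 in both panels.

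The comparison with the 535 eTreg-specific sites inside genes used sums within 1 file, so that each library's scaling cancels. The log2 ratio of signal outside to inside genes was -0.29 and -0.69 in WT Foxp3, -0.49 and -0.93 in R397W Foxp3, -0.46 and -0.88 with WT IgG and -0.54 and -0.89 with R397W IgG. Within each number, WT Foxp3 had the highest value. The groups overlapped, and the means were -0.49 ± 0.29 in WT Foxp3, -0.71 ± 0.31 in R397W Foxp3 and -0.67 ± 0.29 with WT IgG (SD, n = 2 each). An exact permutation test that ignores library number gave p = 0.67 for R397W Foxp3 and for WT IgG, each against WT Foxp3 (two-sided). The spread in that test includes the shift between libraries 1 and 2 that every group shared, so it cannot decide on differences within a number. Taken by number, R397W minus WT Foxp3 was -0.20 and -0.23, and WT Foxp3 minus WT IgG was 0.17 and 0.18. These values by number were added after the data were seen.

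No site passed the test for a difference at the level of single sites. In limma, which shares information on the spread over all 5521 sites, 0 of the 412 sites had an adjusted p under 0.05 for R397W against WT Foxp3 (background 0%) or for WT Foxp3 against IgG (background 0.0725%, 4 of 5521 sites). The counts were likewise 0 for R397W Foxp3 against IgG (background 0%), for the genotype difference in Foxp3 over IgG (background 0%) and for IgG of R397W against WT (background 0.0362%). This fit leaves out library number, so the shift between libraries 1 and 2 is part of its spread. At an unadjusted p under 0.05, 2 sites were lower (background 0.272%) and 0 higher (background 0.0543%) in R397W than in WT Foxp3. In WT Foxp3 against IgG, 6 were higher (background 2.41%) and 2 lower (background 0.163%). At that level, R397W Foxp3 against IgG gave 2 higher (background 0.906%) and 2 lower (background 0.561%). The genotype difference in Foxp3 over IgG gave 2 negative values (background 1.38%) and 0 positive ones (background 0.272%), and the IgG comparison 1 higher (background 1.52%) and 1 lower (background 0.725%). Tests of the recovered reads with edgeR and DESeq2 also called 0 of the 412 and 0 of all 5521 sites in each of the 5 comparisons. Without WT Foxp3 2, where the remaining WT library is assumed to vary like the others, 59 sites (14.3%) were called lower in R397W, beside 11.6% of all sites called, and 22 sites (5.34%) were called in WT Foxp3 against IgG, beside 3.42% of all sites. All 59 were at 0 in both R397W Foxp3 libraries, and 66 of the 412 sites were at 0 in both.

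Differences are therefore described by values and by whether the libraries overlap. On the log2(value + 1) scale, the median R397W minus WT Foxp3 difference was -0.90 over the 412 sites and -0.39 over all 5521. It was -0.70 over the 535 eTreg-specific sites inside genes. Of the 412 sites, 68.2% had a negative value against 60.4% of all. With group means below the floor of 3 reads per library raised to it, the median log2 ratio was -0.58 over 403 sites. These 403 had at least 1 group above the floor. The median was -0.27 over the 520 such eTreg-specific sites inside genes and -0.19 over all such sites of the series. R397W Foxp3 stood at the floor at 117 of the 403 sites and WT Foxp3 at 8. The sign rests on single libraries, since the median over the 412 sites was 0.04 without WT Foxp3 1 and 0.12 without R397W Foxp3 2. Both WT Foxp3 libraries exceeded both R397W Foxp3 libraries at 70 sites (17.0%, background 12.6%), and the reverse held at 21 sites (5.10%, background 6.43%). By number, R397W was lower at 69.7% of the sites and higher at 28.4% in libraries 1 (background 60.7% and 37.7%), and lower at 38.1% and higher at 24.8% in libraries 2 (background 36.9% and 28.7%). R397W Foxp3 2 had no read at 269 of the 412 sites, and the part of such zeros in these counts was not tested. Among the 87 sites with reads in all 4 Foxp3 libraries, 17 were lower without overlap in R397W and 13 higher, that is 19.5% and 14.9%, beside 14.7% and 13.0% of the 1847 such sites of the series.

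Against IgG, the WT Foxp3 libraries were both higher than both WT IgG libraries at 91 of the 412 sites (22.1%, background 19.5%) and both lower at 12 (2.91%, background 4.84%). R397W Foxp3 was above R397W IgG without overlap at 38 sites (9.22%, background 10.4%) and below it at 36 (8.74%, background 7.84%). The median Foxp3 minus IgG difference over the 412 sites was 1.76 in WT (1.27 over all sites) and 0.01 in R397W (0.05 over all sites) on the log2(value + 1) scale. Over the eTreg-specific sites inside genes it was 1.64 in WT and 0.07 in R397W. The WT median over the 412 sites was 0.00 without WT Foxp3 1 and 0.52 without WT IgG 2. Their R397W median lay between -0.90 and 1.68 when a R397W library was left out. IgG of R397W stood above IgG of WT without overlap at 31 sites (7.52%, background 11.3%) and below it at 18 (4.37%, background 5.51%). WT Foxp3 exceeded both WT IgG and R397W Foxp3 without overlap at 36 sites (8.74%, background 7.06%). Foxp3 was above IgG in both genotypes without overlap at 9 sites (2.18%, background 2.35%). The shares against IgG in R397W cells and those of sites above IgG in both genotypes thus lay near the background.

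**Figure D3:**
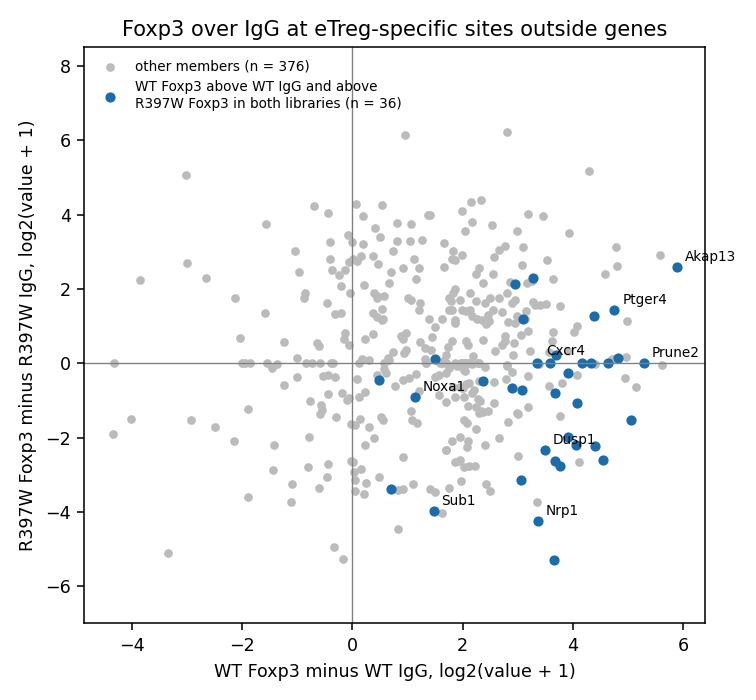
Foxp3 minus IgG difference of group means of log2(normalised read count + 1) in WT (x axis) and R397W cells (y axis) at the 412 sites. Blue points are the 36 sites where both WT Foxp3 libraries exceeded both WT IgG and both R397W Foxp3 libraries, a choice that uses the plotted values; the medians over all 412 sites are 1.76 in WT and 0.01 in R397W.

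The strongest sites in WT cells differed in how they compared with IgG and R397W. The highest mean lay 4206 bp from Prps1l1, a phosphoribosyl pyrophosphate synthetase-like gene (chromosome 12, 34990442 to 34990842). It had 441 and 37.6 in WT Foxp3, 81.7 and 14.1 in R397W Foxp3, 20.7 and 0 with WT IgG and 32.2 and 0 with R397W IgG, so the mean rested on WT Foxp3 1. At the site 16143 bp upstream of Noxa1, which encodes an activator of NADPH oxidase (chromosome 2, 25111148 to 25111548), the values were 220 and 245 in WT Foxp3, 37.7 and 21.1 in R397W Foxp3, 150 and 74.0 with WT IgG and 59.5 and 48.5 with R397W IgG. WT Foxp3 was separate from all other groups, and its mean was 7.90-fold that of R397W (log2 difference -2.99 ± 0.78, SE, limma adjusted p = 1). Near Sub1, the gene of a transcriptional coactivator (14355 bp upstream, chromosome 15, 12010193 to 12010593), WT Foxp3 had 139 and 142, R397W Foxp3 18.9 and 0, WT IgG 60.4 and 41.3 and R397W IgG 39.7 and 121. The WT Foxp3 mean was 15.0-fold that of R397W (log2 difference -4.99 ± 2.02, SE, limma adjusted p = 1). The site 5160 bp from Adprhl1, an ADP-ribosylhydrolase-like gene, had 193 and 208 in WT Foxp3 and 228 and 185 in R397W Foxp3, beside 175 and 0 with WT IgG and 327 and 0 with R397W IgG. The genotypes overlapped there. So they did near Zbtb38, a zinc finger gene, with 104 and 176 in WT Foxp3 and 52.4 and 105 in R397W Foxp3, where WT IgG reached 137 and 56.0. R397W IgG had 151 and 51.4 there.

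The 3 sites with the largest values in the direction of WT had no read in either R397W Foxp3 library. The first lay 24331 bp upstream of Dusp1, whose product inactivates MAP kinases (chromosome 17, 26532603 to 26533003). It had 105 and 116 in WT Foxp3, 0 and 0 in R397W Foxp3, 62.2 and 0.544 with WT IgG and 24.8 and 0 with R397W IgG. Against the floor of 3 reads per library, WT Foxp3 was at least 25.6-fold higher than R397W (log2 difference -6.80 ± 3.04, SE, limma adjusted p = 1). The second, 44862 bp downstream of Prune2, had 52.0 and 27.6 in WT Foxp3 and 0 in all 6 other libraries. WT Foxp3 was at least 9.23-fold higher than R397W Foxp3 and at least 22.6-fold higher than WT IgG by the same floor, and neither difference passed (limma adjusted p = 1 and 0.99). The third, 94801 bp upstream of Galnt15, a gene of mucin-type glycosylation, had 19.1 and 64.5 in WT Foxp3, 0 and 0 in R397W Foxp3, 3.77 and 0 with WT IgG and 19.8 and 0 with R397W IgG.

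In the opposite direction the leading site abutted a promoter. The Mbnl1 site (chromosome 3, 60472285 to 60472685), whose last 106 bases are shown above, had 0 and 0 in WT Foxp3, 14.7 and 150 in R397W Foxp3, 15.7 and 0 with WT IgG and 9.92 and 84.7 with R397W IgG. R397W Foxp3 was at least 43.9-fold higher than WT Foxp3 against the floor, but it overlapped R397W IgG, and the genotype difference did not pass (log2 difference 5.60 ± 3.52, SE, limma adjusted p = 1). The site 14282 bp from Rb1, the retinoblastoma tumour suppressor gene, had 9.53 and 0 in WT Foxp3, 27.2 and 74.2 in R397W Foxp3, 26.4 and 0 with WT IgG and 4.96 and 0 with R397W IgG. R397W Foxp3 was separate from both other groups it was set against. The site 60290 bp from Atp6v1c1, a subunit gene of the vacuolar proton pump, had 21.7 and 0 in WT Foxp3 and 85.9 and 33.6 in R397W Foxp3, where R397W IgG had 54.5 and 0.

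**Figure D4:**
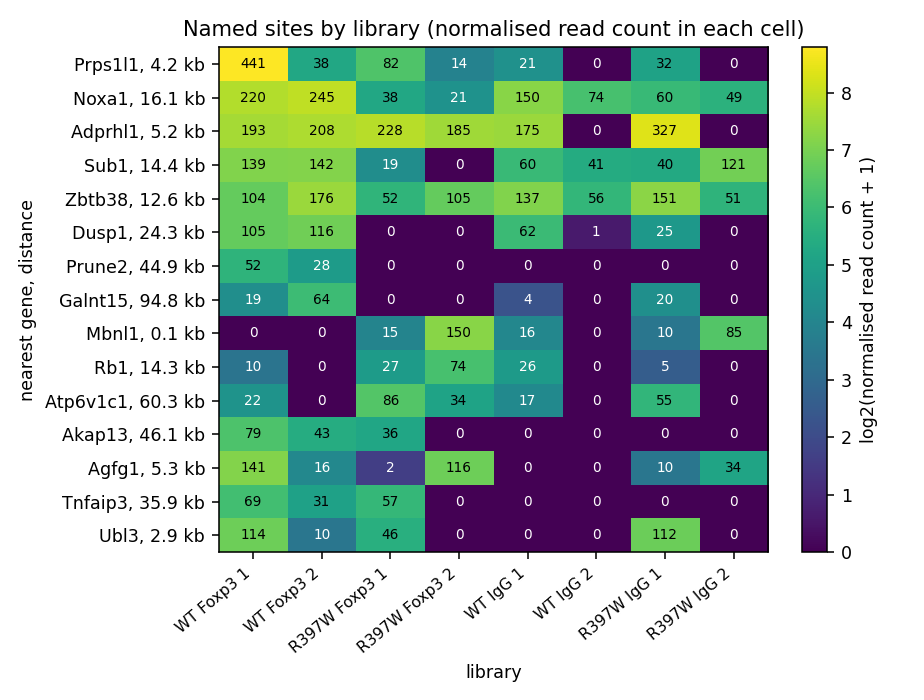
Normalised read counts of 15 sites (rows, labelled by nearest gene and distance) in the 8 libraries (columns); colour gives log2(value + 1) and the figure in each cell the rounded value. The first 5 rows are the highest WT means, the next 3 and the 3 after them the largest differences between genotypes in each direction, and the last 4 are further sites with the largest WT Foxp3 minus IgG difference.

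The largest WT Foxp3 minus IgG differences came from sites without an IgG read. The first was 46132 bp downstream of Akap13, with 78.8 and 42.6 in WT Foxp3, 35.6 and 0 in R397W Foxp3 and 0 in all 4 IgG libraries. WT Foxp3 was at least 34.5-fold above IgG by the floor (log2 difference 5.88 ± 2.99, SE, limma adjusted p = 0.99). The site is 1 of 3 members in a stretch of 13121 bp, the widest run of sites each within 10 kb of the next, and the others had lower WT Foxp3 values of 28.6 and 0, and of 17.3 and 4.61. Near Tnfaip3, which encodes the NF-kB inhibitor A20, the site 35923 bp downstream had 69.3 and 31.5 in WT Foxp3, 56.6 and 0 in R397W Foxp3 and 0 in all 4 IgG libraries. A second Tnfaip3 site at 59230 bp had 24.3 and 0 in WT Foxp3 and 11.3 and 0 with WT IgG. The site 2908 bp from Ubl3, a ubiquitin-like gene, had 114 and 9.98 in WT Foxp3 and 0 and 0 with WT IgG, and 46.1 and 0 in R397W Foxp3 beside 112 and 0 with R397W IgG.

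Agfg1 had the run with the most sites. Upstream of Agfg1, 5 sites lay within 5327 bp, 4 of them in the lncRNA gene Gm34450, and the other lay 31548 bp from the gene. The site at 5269 bp had 141 and 16.1 in WT Foxp3, 2.09 and 116 in R397W Foxp3, 0 and 0 with WT IgG and 9.92 and 34.3 with R397W IgG. Its neighbour at 4213 bp had higher values with IgG (118 and 125 in WT) than with anti-Foxp3 (43.3 and 112 in WT, 20.9 and 60.9 in R397W). The site at 31548 bp had 35.5 and 29.9 in WT Foxp3, 10.5 and 0 in R397W Foxp3, 5.66 and 0 with WT IgG and 7.44 and 0 with R397W IgG, with WT Foxp3 separate from the other groups. Neighbouring sites of this group thus differed in their relation to IgG.

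Ptger4 and Cxcr4 carried most of the sites of the chemokine and homing receptor list. In this list, 14 sites had 7 of its 25 genes as the nearest gene, and 5 of the 14 were lower in R397W without overlap (background 12.6%) and 0 higher (background 6.43%). The median R397W minus WT Foxp3 difference was -0.48 on the log2(value + 1) scale and -1.08 with 12 sites above the floor, beside -0.39 and -0.19 over all sites. WT Foxp3 was above IgG without overlap at 2 of the 14 (background 19.5%) and below it at 0 (background 4.84%). Both were among the 5 sites lower in R397W, and at the rest of those WT Foxp3 overlapped WT IgG. The median WT Foxp3 minus IgG difference was 0.93, or 1.35 with 13 sites above the floor, beside 1.27 and 1.07 over all sites. The 6 Ptger4 sites lay 170475 to 514684 bp upstream of the gene, with no other protein-coding gene between. At 220832 bp (chromosome 15, 5464819 to 5465219) WT Foxp3 had 107 and 61.0, R397W Foxp3 6.28 and 0, WT IgG 8.17 and 0 and R397W IgG 0 and 0, and WT Foxp3 was separate from every other group. The other 5 Ptger4 sites had at most 38.1 in WT Foxp3 1 and 6.14 in WT Foxp3 2. Cxcr4, the receptor for CXCL12, had sites at 112925, 174739 and 240299 bp upstream. The middle one (chromosome 1, 128766838 to 128767238) had 113 and 108 in WT Foxp3, 62.8 and 0 in R397W Foxp3, 11.9 and 0.544 with WT IgG and 62.0 and 0 with R397W IgG. WT Foxp3 was again separate from the rest, while R397W Foxp3 and its IgG had nearly equal values. The Cxcr4 site at 112925 bp had 52.8 and 0 in WT Foxp3 and 62.8 and 45.3 in R397W Foxp3, which overlapped. The Ccr8 promoter site had 97.0 and 61.0 in WT Foxp3, 96.4 and 0 in R397W Foxp3, 93.0 and 0 with WT IgG and 24.8 and 23.8 with R397W IgG, so neither Foxp3 group was separate from its IgG or from the other. Of the others, the Cxcr5 site (11609 bp) had 49.4 and 43.0 in WT Foxp3 and 27.2 and 0.781 in R397W Foxp3, but 127 and 39.2 with WT IgG.

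**Figure D5:**
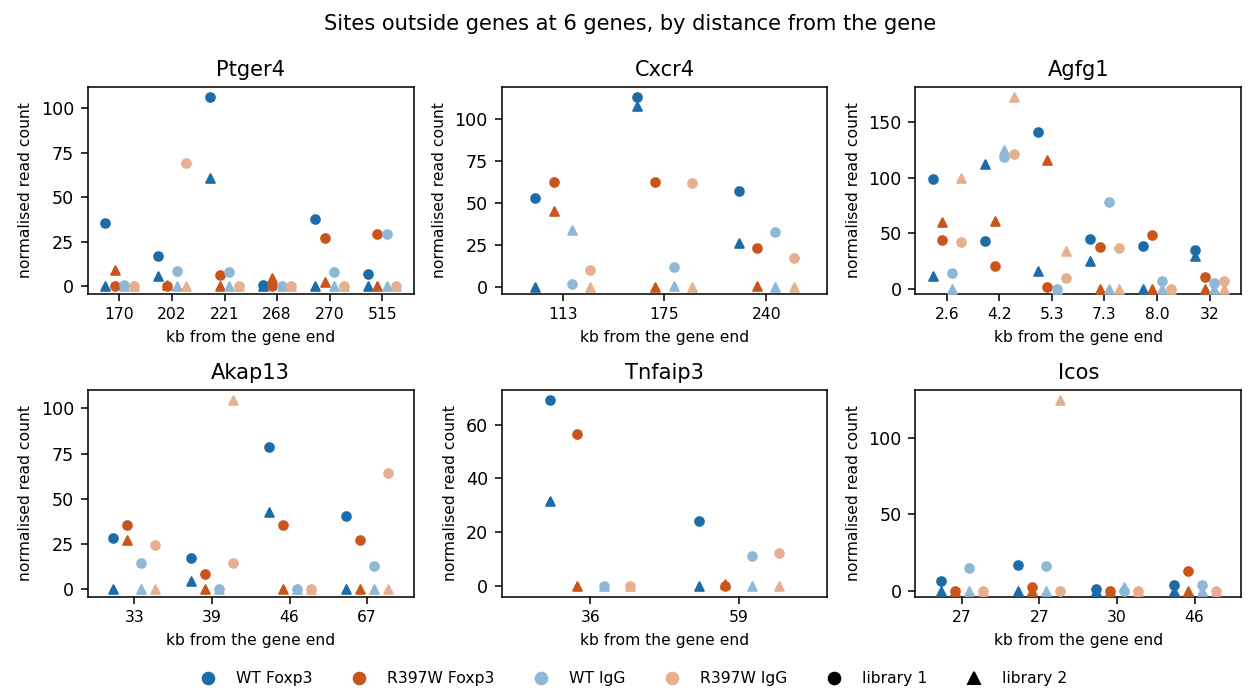
Normalised read counts of the sites at 6 genes, each site placed by its rank of distance from the nearest gene end (x axis labels, kb) and each library shown as a point (circles, library 1; triangles, library 2). The Ptger4 site at 220832 bp has 107 and 61.0 in WT Foxp3 and the Cxcr4 site at 174739 bp has 113 and 108, above all other libraries at those sites.

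The effector Treg list had the most sites, 25 at 16 of its 40 genes. Of these 25, 4 were lower in R397W without overlap (Pdcd1, Il10, Tnfrsf1b and the Bhlhe40 site at 21606 bp, background 12.6%) and 1 higher (Cd44, background 6.43%). WT Foxp3 was above IgG at 3 (Pdcd1, Tnfrsf9 and the Bhlhe40 site at 2144 bp, background 19.5%). The shares were thus near the background or, against IgG, below it. The median R397W minus WT Foxp3 difference was -1.32, or -0.64 with 23 sites above the floor, beside -0.39 and -0.19 over all sites. The median WT Foxp3 minus IgG difference was 0.68, beside 1.27 over all sites. Pdcd1 encodes the inhibitory receptor PD-1, and its site 2679 bp upstream had 19.1 and 6.14 in WT Foxp3 and 0 in the other 6 libraries. The site upstream of Tnfrsf9, the gene of the costimulatory receptor 4-1BB, had 183 and 46.4 in WT Foxp3, 147 and 0 in R397W Foxp3, 37.7 and 0 with WT IgG and 91.7 and 0 with R397W IgG. At Tnfrsf1b, the gene of TNF receptor 2, the values were 151 and 116 in WT Foxp3, 96.4 and 0 in R397W Foxp3, 146 and 14.1 with WT IgG and 278 and 41.9 with R397W IgG. WT Foxp3 and WT IgG overlapped there. The site of Il10, an anti-inflammatory cytokine gene, had 27.7 and 30.7 in WT Foxp3, 25.1 and 0 in R397W Foxp3, 36.5 and 0 with WT IgG and 49.6 and 0 with R397W IgG. The 4 Icos sites, 26594 to 45894 bp from the gene, were among the weakest, with at most 16.5 in WT Foxp3 1 and 0 in WT Foxp3 2. Bhlhe40, a transcription factor gene, had a site at 2144 bp with 67.6 and 105 in WT Foxp3, 81.7 and 0 in R397W Foxp3 and 34.0 and 44.1 with WT IgG. Its site at 21606 bp had reads in all 8 libraries, from 88.2 in R397W Foxp3 2 to 262 with R397W IgG 2.

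The other lists had few sites each. The core Treg list had 5 sites, at Nrp1, Nt5e, Ctla4 and Bach2, of which 1 was lower in R397W without overlap (background 12.6%) and 2 were above IgG in WT (background 19.5%). Its median genotype difference was -1.46 with the pseudocount and 0.10 with the floor. The Nrp1 site, 44450 bp downstream of the gene of the surface receptor neuropilin-1 (chromosome 8, 128549726 to 128550126), had 130 and 62.6 in WT Foxp3, 6.28 and 0 in R397W Foxp3, 49.7 and 0.544 with WT IgG and 22.3 and 111 with R397W IgG. WT Foxp3 was separate from WT IgG and from R397W Foxp3 there. The Ctla4 site, 21786 bp upstream of this inhibitory receptor gene, had 24.3 and 0 in WT Foxp3 and 25.1 and 0.781 in R397W Foxp3. WT IgG had 8.17 and 0 there, and R397W IgG 29.8 and 0. The Bach2 site, 2341 bp downstream of the gene of a repressor kept by resting Treg cells, varied from 0 with R397W IgG 2 to 373 in R397W Foxp3 2.

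The cytokine list had 3 sites, at Il2, Ifng and Il10, with a median genotype difference of -1.75, or -1.12 with the floor. The Il2 promoter site had 14.7 and 4.22 in WT Foxp3, 10.5 and 0 in R397W Foxp3, 15.1 and 97.4 with WT IgG and 0 and 0 with R397W IgG, so both WT IgG libraries exceeded both WT Foxp3 libraries. The Ifng site, 28037 bp upstream of the interferon-gamma gene, had 21.7 and 5.76 in WT Foxp3, 12.6 and 0 in R397W Foxp3 and 0 and 0 with WT IgG. The AP-1, IRF and NFAT list had 2 sites with opposite values. Fosb, an AP-1 subunit gene, had 62.4 and 13.1 in WT Foxp3, 0 and 0 in R397W Foxp3 and 4.40 and 0 with WT IgG. Atf3, a stress-induced transcription factor gene, had 113 and 9.21 in WT Foxp3, 117 and 126 in R397W Foxp3 and 24.5 and 69.6 with WT IgG.

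Of the NF-kB and TNF receptor genes, 3 had sites, 4 in all (Tnfaip3, Tnfrsf1b and Tnfrsf9), with a median genotype difference of -2.80, or -1.15 with the floor. The MAP kinase and phosphatase list had 4 sites, at Dusp1, Dusp4, Dusp5 and Rasgrp1. Its median was 0.53 as a difference of mean log2(value + 1) and -0.29 as a log2 ratio of group means with the floor, so the sign differed between the measures. The naive and resting T cell list had 4 sites, 3 of them at Ets1 and 1 at Bach2, with none separate in either comparison and a median of -0.72, or -0.45 with the floor. The CD8 T and NK cell list had 1 site, at Klrb1c, an NK cell receptor gene, with 78.8 and 13.1 in WT Foxp3 and 23.0 and 14.1 in R397W Foxp3. No site had its nearest gene in the T cell receptor signalling, B cell, myeloid or housekeeping lists, while 15 eTreg-specific sites inside genes had theirs in the T cell receptor signalling list. In all, 56 of the 412 sites had a listed gene as the nearest. The mean Foxp3 to IgG ratio over these was 2.13 and 1.67 for WT cells, against 1.03 and 1.01 for R397W cells. Over all 412 sites it was 1.82 and 1.56, against 0.897 and 1.01. WT Foxp3 was above IgG without overlap at 11 of the 56 (19.6%), beside 22.1% of the 412 (background 19.5%).

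The WT Foxp3 to IgG ratio had no steady order by position. It was 2.07 and 1.77 under 5 kb from a gene, 1.49 and 1.71 at 5 to 20 kb, 1.93 and 1.43 at 20 to 100 kb and 2.18 and 1.31 at over 100 kb (libraries 1 and 2). The order of the 4 classes differed between the 2 libraries. The R397W ratio ranged from 0.687 to 1.51 over these classes and libraries. Sites upstream of their nearest gene had WT ratios of 1.84 and 1.31, and downstream sites 1.69 and 1.98. Sites in a non-coding gene had 2.00 and 1.25, and the 318 sites outside every annotated gene 1.77 and 1.66. Sites with another eTreg-specific site within 10 kb had 2.73 and 1.44, against 1.70 and 1.58 for the rest. Sites within 10 kb of a common site had 1.90 and 1.5, against 1.81 and 1.57 for the rest. In none of the last 4 splits did both WT libraries give the same direction. Sites under 5 kb from a gene had the higher ratio in both WT libraries against the 5 to 20 kb and the 20 to 100 kb classes, but not against those over 100 kb.

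The 23 sites with reads in all 8 libraries were the best measured. Their mean was 82.1 and 70.9 in WT Foxp3, 65.6 and 56.1 in R397W Foxp3, 87.2 and 65.9 with WT IgG and 97.1 and 87.3 with R397W IgG. WT Foxp3 and WT IgG overlapped, and both WT Foxp3 means exceeded both R397W Foxp3 means, with an exact permutation p of 0.33, the smallest possible. The median WT Foxp3 minus IgG difference was -0.05 on the log2(value + 1) scale, beside 0.05 over the 938 such sites of the series, and the median genotype difference was -0.41, beside -0.02. The library factors matched the median-of-ratios factors of sites of this kind, 65 of them in the eTreg-specific file. That scaling holds the median over those 65 sites near 0, but not that over the 23 alone. Values of the 23 are thus relative to the 65 sites. They cannot show whether Foxp3 exceeded IgG, or the genotypes differed, by a shift that the 65 share. R397W was lower without overlap at 8 of the 23 sites (34.8%, beside 15.9% of the 938) and higher at 4 (17.4%, beside 14.3%). These sites include Noxa1, Zbtb38 and Bhlhe40, described above, and a site 64830 bp from Rbpj, the DNA-binding effector gene of Notch signalling, where R397W IgG was the highest group with 228 and 347.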

How the data were processed

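Per the labels' protocols, fixation was in 0.1% formaldehyde (2 minutes), nuclei of another source were spiked in, each reaction had 0.5 µg of antibody, and PCR ran for 14 to 15 cycles. The submitters' processing notes list DiffBind 3.12.0 and Bowtie2 2.5.2, with dm6 and mm10 as builds, but no roles; the sources used here name no peak caller. The authors deposited a normalised signal per site and library, a read count divided by a factor, under file names that call it spike-in normalised. In each library and file, 100% of the values were whole multiples of 1 step (tolerance 0.01), and each step matched the median-of-ratios factor of that file's sites with reads in all 8 libraries. The 3 files are thus scaled separately. In each file, the factor brings the typical difference between libraries near 0 only at those fully read sites (65 eTreg-specific ones). Sites lacking a read in some library can keep a common difference.

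A site belonged to the set when its centre lay outside all protein-coding gene bodies of RefSeq GRCm38.p6; 1 cTreg-specific site on a contig without genes was not assessed. Distances run to the nearer gene end, and start coordinates may be off by 1 base, since their base is not stated. Exon and intron structure was not used. The sites, lists and comparisons were chosen with earlier results of these data known.

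The main test was limma 3.58.1 (R 4.3.3; empirical Bayes with a trend; two-sided), run on log2(value + 1) of all 5521 sites with Benjamini-Hochberg adjustment and a threshold of 0.05. It used the 4 Foxp3 libraries for the genotype comparison and all 8, with a mean per group, for the others. No site was filtered. Fold changes on this scale understate weak sites. Library means were compared by exact permutation tests. Alternatives were edgeR 4.0.16 and DESeq2 1.42.0 on recovered reads, other pseudocounts, filters, scalings and gene definitions, a replicate block and leaving out each library. The fits were tested on simulated data. Named sites are the 5 highest WT means, the 3 largest genotype differences each way and the 5 largest Foxp3 minus IgG differences among sites without overlap, sites at listed genes or at genes with 3 or more sites, the 3 nearest and 3 farthest, and the widest run.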

Additional observations from a re-analysis of the deposited data

Results flagged for a closer look

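At 7 of the named sites both same-numbered pairs of WT libraries had more signal with anti-Foxp3 than with IgG, while both R397W pairs had less. Over the 412 sites this pattern held at 13 (3.16%, beside 4.31% of all 5521 sites), and the reverse pattern at 2 (0.485%, beside 1.47%). Pairing by number is not stated in the labels. The genotype difference in Foxp3 over IgG was fitted in limma, with no site passing (lowest adjusted p among the 412 sites 1.00). Its log2 values were -7.61 at Nrp1, -7.08 at the Akap13 site 39455 bp away, -5.46 at Sub1, -4.97 at Tnfrsf1b, -2.44 at Dusp4, -2.03 at Noxa1 and -2.01 at the Ankrd46 site 28605 bp away. At Nrp1, Akap13 and Sub1 the value of R397W IgG 2 was 111, 105 and 121, the highest R397W value there. No group had the 4 libraries needed to look for an outlying sample.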

How the results depend on the processing

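No alternative that kept all libraries called any of the 412 sites in any of the 5 comparisons, with limma under pseudocounts of 0.5 and 5, without the lowest 25% of sites, with sites read in all 8 libraries, with other scalings or no trend, or with edgeR or DESeq2. Of these, DESeq2 over all 8 libraries was added after the data were seen. The replicate block also left 0 of the 412 sites called in each comparison (lowest adjusted p = 0.57 in limma). At an unadjusted p under 0.05 it gave 35 sites higher and 4 lower for WT Foxp3 against IgG. For R397W against WT Foxp3 it gave 1 higher and 15 lower, and for R397W Foxp3 against IgG 12 and 7. The counts were 3 and 18 for the genotype difference in Foxp3 over IgG and 10 and 5 for the IgG comparison. The share of all sites at that level under the block was not counted, so these counts have no background. The deviations of same-numbered libraries from their group means correlated by -0.07 to 0.11 over the 412 sites and by 0.04 to 0.17 over all sites. Not every value exceeded 0.1, and the tests do not treat the numbers as pairs. Such correlations leave out a shift that all sites of a library share, so they cannot decide on pairing. The Foxp3 to IgG ratio does set libraries side by side by number. Under the block the 2 ratios of signal outside to inside genes stayed at -0.22 and 0.18 and the Foxp3 to IgG difference at -0.82 (exact p = 0.50 for 2 pairs, the smallest possible). Leaving out 1 library gave 0 to 59 called sites for R397W against WT Foxp3, 0 to 22 for WT Foxp3 against IgG and 0 to 20 for the genotype difference in Foxp3 over IgG. The highest count came each time without WT Foxp3 2, where 11.6%, 3.42% and 3.30% of all sites were called. The cause was not tested. The mean signal difference ranged from -18.8 to 5.27, the outside to inside difference of R397W against WT from -0.43 to 0.00054, and that of WT Foxp3 against IgG from -0.029 to 0.39 (-0.024 without WT Foxp3 1); with sites read in all 8 libraries the last was -0.19. The Foxp3 to IgG difference between genotypes was -0.94 to -0.46 in the alternatives by number, which left out Foxp3 libraries only, and -1.38 to -0.36 over the mean IgG without each IgG library. The share of sites outside genes was 37.0% with bodies widened by 5 kb and 33.6% with bodies of all genes. With 1 factor per library over all files, 10 instead of 21 sites were higher in R397W (6.27% of all sites) and 6 instead of 12 below IgG (4.44% of all sites) without overlap. Over the 412 sites that scaling moved the median of R397W against WT Foxp3 from -0.90 to -1.08, of WT Foxp3 against IgG from 1.76 to 1.95, of R397W Foxp3 against IgG from 0.01 to 0.25 and of the IgG comparison from 0.18 to 0.00, with medians over all sites within 0.1. Equal totals moved the all-site median of WT Foxp3 against IgG from 1.27 to 0.97, that of the genotype difference in Foxp3 over IgG from -1.02 to -0.80 and that of the IgG comparison from 0.33 to 0.14. The number of the 412 sites without a read, from 9 (WT Foxp3 1) to 312 (WT IgG 2), did not follow the reads in all sites, since WT Foxp3 2, with the most reads (394196), had 200.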
